A study of Rattus norvegicus with 32 samples.

Results

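Iron enters the mitochondrial matrix through the mitoferrins and is built there into iron-sulfur clusters, and the genes described here encode that route: the importers Slc25a37 and Slc25a28, the cysteine desulfurase Nfs1, the scaffold Iscu, and the later factors Glrx5, Isca1, Isca2 and Nfu1. They were chosen by name, as the rows of the count table whose gene name was one of these 8. That gave 9 rows of 32883, because 2 rows carried the name Nfs1, and 8 of the 9 had enough reads to be tested.

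RNA was sequenced from 1 hippocampus of each of 32 wild-type rat pups. The groups were ID insulin (8 pups), ID control (9), IS insulin (7) and IS control (8). ID stands for iron deficiency, induced through the dam by a purified diet with 3 to 6 ppm iron fed from gestational day 3 to postnatal day 7, and IS for the iron-sufficient counterpart. Insulin was given to pups through the nose 2 times daily from postnatal day 8 to postnatal day 21, and the control pups are labelled only as control. Pups were killed on postnatal day 7 or postnatal day 21. Insulin began after the first of these days, so the insulin pups were 21 days old, while the age of the control pups is not given by the labels, and an age difference between insulin and control pups cannot be told apart from the treatment. Every group has a leading title number of its own (73 for ID insulin, 72 for IS insulin, 71 for IS control), and ID control has both 69 and 70. The labels do not say what it stands for, so anything it marks, such as a litter, cannot be told apart from the group. The spread behind each p-value is that between these individual pups.

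Libraries held 19619345 to 28062630 counted reads. Levels are given as CPM, read counts brought to a common library total by the trimmed mean of M-values. Hippocampal and excitatory neuron genes (11 of 12 tested) were present in every library, with summed medians of 6260 CPM in ID insulin pups (4769 to 7215), 7251 in ID control (6411 to 7456), 6970 in IS insulin pups (6116 to 7406) and 7066 in IS control (6717 to 7621). Red blood cell genes summed to 1269 to 5536 CPM in ID insulin pups, 1375 to 3234 in ID control, 1588 to 4012 in IS insulin pups and 939 to 3247 in IS control. Choroid plexus genes ranged more widely, with 333 to 6218, 1241 to 5766, 31.1 to 4439 and 20.5 to 3433 CPM in the same order of groups. ID insulin replicate 3 stood at the top of its group for 6 of the genes described below. Of all 32 libraries it had the lowest sum of neuron genes (4769 CPM) and the highest sums of oligodendrocyte (30448), astrocyte (5648) and choroid plexus genes (6218), and its endothelial sum (227) was the lowest but 1. The part of the neuron, glial and endothelial differences in the results was not tested beyond leaving that library out. Fits with the mean of the red blood cell list, or the means of the tissue lists, in the model are given below. Those tissue lists were choroid plexus, red blood cells, meninges and thalamus. Bulk tissue cannot separate fewer cells of a type from less RNA per cell.

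In the matrix, NFS1 takes sulfur from cysteine and hands it to the scaffold ISCU, where it joins iron. The glutaredoxin GLRX5 receives the finished cluster and passes it on, and ISCA1, ISCA2 and NFU1 help to make and deliver the larger clusters that respiratory complexes, aconitase and lipoic acid synthase need. SLC25A37 (mitoferrin-1) is best known from developing red blood cells, whereas SLC25A28 (mitoferrin-2) is used more widely, and neurons depend on the route for respiration.

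The promoters of Iscu, Isca1 and Glrx5 are shown because these genes varied together from pup to pup, as described further on. RefSeq (build GRCr8) gave a promoter window of 300 bases, 250 before to 50 after the gene start, for 6 of the 8 genes, but for neither Slc25a37 nor Nfs1. Capitals mark the letters of a motif on either strand: the ETS-type motif CCGGAAG, the CCAAT box with the letters CCAAT, the GC box GGGCGG and the YY1-type motif ATGGCGG, none of which overlapped another here. Iscu lies at chr12:48518647-48518946 (minus strand), Isca1 at chr17:4910566-4910865 (plus strand) and Glrx5 at chr6:129752944-129753243 (plus strand).
Iscu: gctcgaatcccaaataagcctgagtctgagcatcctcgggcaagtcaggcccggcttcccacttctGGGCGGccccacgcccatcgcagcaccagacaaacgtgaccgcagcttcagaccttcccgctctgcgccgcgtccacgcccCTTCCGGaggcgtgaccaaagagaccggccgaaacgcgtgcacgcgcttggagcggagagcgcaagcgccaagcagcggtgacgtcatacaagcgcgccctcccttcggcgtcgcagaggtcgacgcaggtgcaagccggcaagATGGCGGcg
Isca1: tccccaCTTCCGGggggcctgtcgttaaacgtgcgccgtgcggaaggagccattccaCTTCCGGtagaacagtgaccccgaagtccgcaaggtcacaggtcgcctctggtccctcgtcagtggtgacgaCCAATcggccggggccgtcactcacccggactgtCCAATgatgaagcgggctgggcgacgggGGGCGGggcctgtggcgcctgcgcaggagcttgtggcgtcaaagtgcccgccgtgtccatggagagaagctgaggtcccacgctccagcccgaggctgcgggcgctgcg
Glrx5: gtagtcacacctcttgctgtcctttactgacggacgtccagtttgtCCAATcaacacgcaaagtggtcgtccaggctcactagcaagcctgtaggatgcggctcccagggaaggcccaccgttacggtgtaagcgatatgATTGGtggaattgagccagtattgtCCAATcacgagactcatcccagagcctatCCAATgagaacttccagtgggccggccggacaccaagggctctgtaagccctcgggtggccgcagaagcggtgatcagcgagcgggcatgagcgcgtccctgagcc
Glrx5 had 4 CCAAT boxes and no other motif of the set. Isca1 had 2 CCAAT boxes, 2 ETS-type motifs and 1 GC box, and Iscu had an ETS-type motif, a GC box and a YY1-type motif, 1 of each, but no CCAAT box. No motif was present in all 3 windows. Among 33469 rat promoters of the same length, 37.5% held a CCAAT box, 33.1% a GC box, 8.75% the ETS-type motif and 4.8% the YY1-type motif. Of the other 3 windows, that of Isca2 held 3 CCAAT boxes, 6 GC boxes and 1 YY1-type motif, that of Slc25a28 held 3 CCAAT boxes and 3 GC boxes, and that of Nfu1 held 2 GC boxes and 1 YY1-type motif. Over the 6 windows, the GC box was in all but that of Glrx5, and the CCAAT box in all but those of Iscu and Nfu1. The YY1-type motif was in those of Iscu, Isca2 and Nfu1, and the ETS-type motif in those of Iscu and Isca1. These frequencies were not tested against those of all promoters.

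No gene of the route passed the threshold in any comparison of diet or insulin. With edgeR's quasi-likelihood test over all genes (Benjamini-Hochberg adjusted p under 0.05), 0 of 8 tested rows were called between ID control and IS control, where 0.291% of the 15439 genes tested were called. The count was also 0 of 8 between ID insulin and ID control (3.82% of all genes), IS insulin and IS control (0.123%), ID insulin and IS insulin (2.45%), ID insulin and IS control (3.35%), ID and IS averaged over treatment (1.63%), and in the interaction of diet and insulin (0.939%). These background shares are small, so counts of 0 among 8 rows do not set the route apart. At an unadjusted p under 0.05 the rows numbered 1 between ID control and IS control (11.9% of all genes), 2 between ID insulin and ID control (19.5%), 0 between IS insulin and IS control (16.3%) and 1 between ID insulin and IS insulin (20.1%). They numbered 1 between ID insulin and IS control (20.3%), 0 for ID and IS averaged (15%) and 1 in the interaction (17.1%). DESeq2 and limma voom also called 0 in each comparison. Several comparisons share pups, so their values are not independent.

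**Figure D1:**
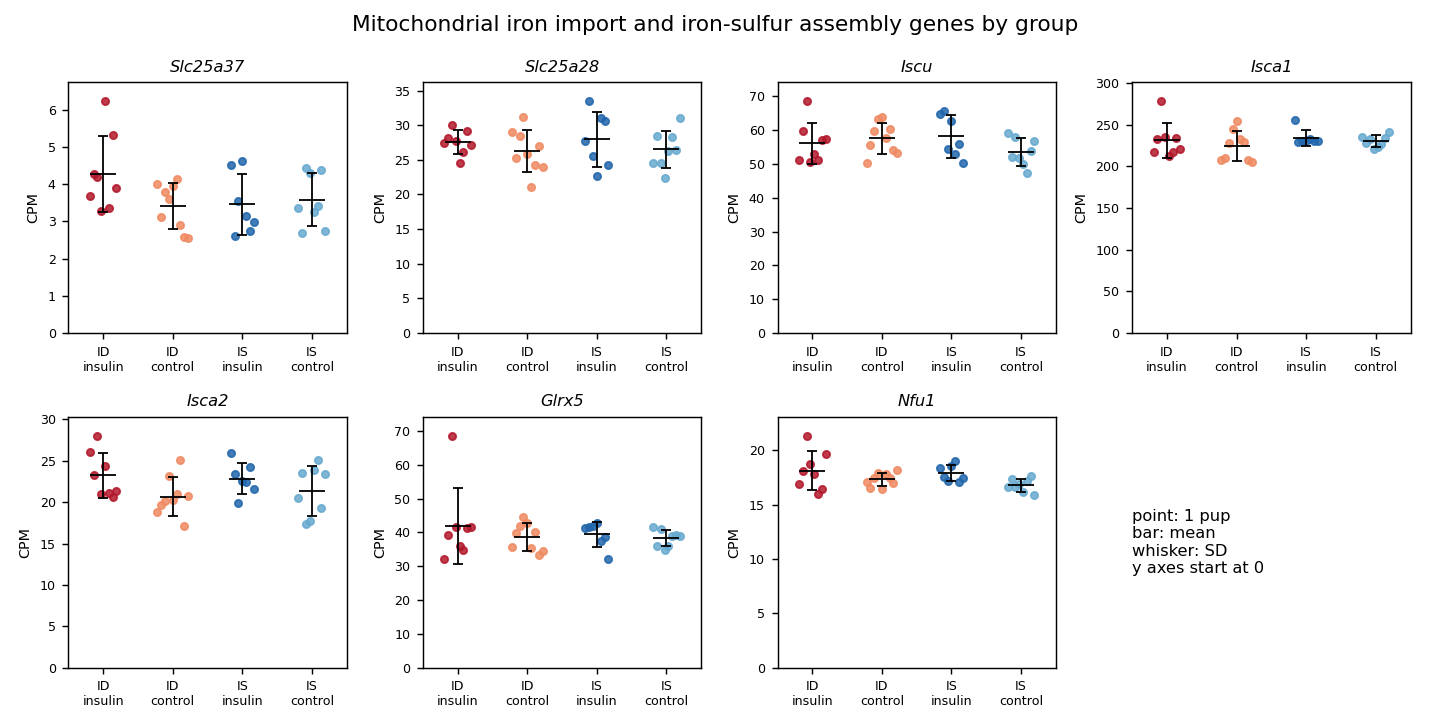
Level in CPM of each gene in each pup, by group, with the mean (bar) and SD (whisker); axes start at 0. The groups overlap for every gene, and ID insulin replicate 3 is the top point for Glrx5 at 68.6 CPM.

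The confidence intervals bounded the differences more closely for some genes than for others. Each interval is for a single gene and was not adjusted for the number of comparisons. Between ID control and IS control, the 7 genes other than Nfs1 differed by between -0.08 and 0.10 on the log2 scale, and their 95% confidence intervals ran from -0.39 at the lowest to 0.23 at the highest. The median of the 8 tested rows was -0.03, against 0.01 for all genes tested. Between ID insulin and ID control the 7 genes ran from -0.04 to 0.34, with 95% confidence intervals from -0.17 at the lowest to 0.64 at the highest. Of the 8 rows, the Nfs1 row among them, 7 were above 0, and the median was 0.09 against 0.00 for all genes. This count rested in part on ID insulin replicate 3. Without that pup Iscu was -0.08, Isca1 -0.0003 and Glrx5 -0.02, while Slc25a37, Slc25a28, Isca2, Nfu1 and the Nfs1 row stayed above 0.

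Slc25a37, the mitoferrin of red blood cell precursors, had the widest difference of these 7 genes. Its lowest, median and highest values were 3.27, 4.04 and 6.24 CPM in ID insulin pups, 2.56, 3.60 and 4.14 in ID control, 2.60, 3.15 and 4.63 in IS insulin pups, and 2.70, 3.39 and 4.43 in IS control. Replicates 5 (6.24 CPM) and 7 (5.33 CPM) of ID insulin were the highest of the 32 libraries, and 4 of the 8 ID insulin pups stood above every ID control pup. The mean was 4.28 ± 1.02 CPM in ID insulin and 3.41 ± 0.62 in ID control (SD, n = 8 and 9), a log2 fold change of 0.34 ± 0.15 (SE; 95% interval 0.04 to 0.64). This did not pass the threshold (edgeR unadjusted p = 0.0272, adjusted p = 0.194). Against IS insulin the log2 fold change of ID insulin was 0.32 (edgeR adjusted p = 0.241), and against IS control it was 0.26 (edgeR adjusted p = 0.326). ID control minus IS control was -0.08 and IS insulin minus IS control was -0.06. The difference between the insulin responses in ID and IS pups was 0.40 (95% interval -0.04 to 0.84, edgeR adjusted p = 0.352).

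Red blood cell genes moved with Slc25a37. Their median sum was 3376 CPM in ID insulin, 1776 in ID control, 1975 in IS insulin pups and 1629 in IS control. Of the 9 tested, 4 were called higher in ID insulin than in ID control, where 3.82% of all genes were called in either direction. Across the 32 libraries Pearson's r between log2 summed red blood cell genes and log2 Slc25a37 was 0.583 (permutation p = 0.00055, adjusted p = 0.00385 over 28 relations) and Spearman's rho was 0.518 (permutation p = 0.00282, adjusted p = 0.0197). Leaving out the 2 libraries farthest from the median on the red blood cell axis gave r = 0.512. The relation was not the same in every group: r was 0.749 in ID insulin, -0.03 in ID control, 0.638 in IS insulin pups and 0.522 in IS control. With the mean of the red blood cell list in the model, ID insulin minus ID control for Slc25a37 was 0.10 (edgeR adjusted p = 0.79), and ID insulin minus IS control was -0.01. With the means of all the tissue lists in the model, the first of these was 0.03. Without ID insulin replicate 5 it was 0.23. Compared with the ID control pups of title number 69 alone it was 0.21, and with those of title number 70 alone 0.49. None of the other 6 genes had an adjusted p under 0.05 for its correlation with the red blood cell genes, with r between 0.05 and 0.39.

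**Figure D2:**
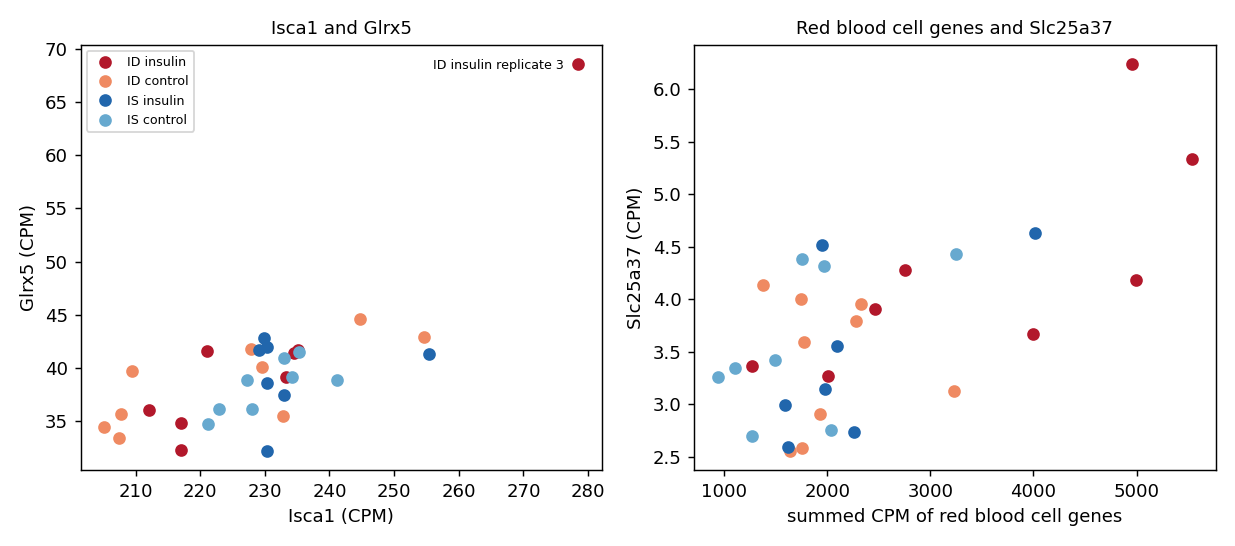
Left, Glrx5 against Isca1, both in CPM; right, Slc25a37 in CPM against the summed CPM of red blood cell genes; each point is 1 pup, coloured by group. Isca1 and Glrx5 rise together (r = 0.751), with ID insulin replicate 3 at the far end, and Slc25a37 is highest in 2 ID insulin pups that are also high in red blood cell genes.

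Slc25a28, the mitoferrin of most other tissues, differed little between groups. Its lowest, median and highest values were 24.6, 27.6 and 30.01 CPM in ID insulin pups, 21.1, 25.8 and 31.2 in ID control, 22.7, 27.8 and 33.5 in IS insulin pups, and 22.4, 26.4 and 31.1 in IS control. The ranges overlapped throughout. The log2 fold change was 0.07 for ID insulin over ID control (95% interval -0.08 to 0.22), -0.01 for ID control over IS control (-0.17 to 0.14) and 0.08 for IS insulin over IS control (-0.08 to 0.24). The ratio of Slc25a37 to Slc25a28 counts, not corrected for transcript length, was 0.157 ± 0.044 in ID insulin, 0.131 ± 0.030 in ID control, 0.128 ± 0.045 in IS insulin pups and 0.138 ± 0.038 in IS control (SD, n = 8, 9, 7 and 8). Its highest pup in ID insulin (0.254) stood above all others, and the groups otherwise overlapped. Across 32 libraries the mitoferrins did not rise together (r = -0.27, permutation p = 0.135, adjusted p = 0.222; rho = -0.17, permutation p = 0.36, adjusted p = 0.499; r = -0.31 without the 2 libraries farthest from the median).

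Iscu, the scaffold, ran at 50.5, 55.0 and 68.6 CPM (lowest, median, highest) in ID insulin, 50.3, 57.6 and 63.8 in ID control, 50.2, 55.9 and 65.8 in IS insulin pups, and 47.2, 52.9 and 59.3 in IS control. IS control was lowest, and 4 of 9 ID control pups lay above every IS control pup. The log2 fold change of ID control over IS control was 0.10 ± 0.06 (SE; 95% interval -0.03 to 0.23, edgeR adjusted p = 0.542), and that of IS insulin over IS control was 0.12 ± 0.07 (edgeR adjusted p = 0.397). ID insulin over ID control was -0.04. The interaction was -0.15 (95% interval -0.34 to 0.03, edgeR adjusted p = 0.403).

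Isca1 and Isca2 act together in making clusters of the larger kind. Isca1 had 212, 227 and 278.5 CPM (lowest, median, highest) in ID insulin, 205, 228 and 255 in ID control, 229, 230.4 and 255 in IS insulin pups, and 221, 230.5 and 241 in IS control. All but 1 of the IS insulin pups were between 229 and 233 CPM. Isca1 had the narrowest bounds of the set: ID control minus IS control was -0.04 (95% interval -0.13 to 0.06), and ID insulin minus ID control was 0.04 (-0.05 to 0.14), or 0.00 without ID insulin replicate 3. Isca2 had 20.7, 22.3 and 28.0 CPM in ID insulin, 17.2, 20.2 and 25.1 in ID control, 19.9, 22.6 and 25.9 in IS insulin pups, and 17.4, 22.0 and 25.2 in IS control. Its log2 fold change of ID insulin over ID control was 0.16 ± 0.08 (SE; 95% interval 0.00 to 0.33, edgeR unadjusted p = 0.0479, adjusted p = 0.251), with 2 of 8 ID insulin pups above every ID control pup. Without ID insulin replicate 3 it was 0.12. The ratio of Isca1 to Isca2 counts was 10.0 ± 1.1 in ID insulin, 10.9 ± 1.0 in ID control, 10.3 ± 0.7 in IS insulin pups and 10.98 ± 1.63 in IS control (SD, n = 8, 9, 7 and 8).

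Glrx5, the carrier of finished clusters, had 32.3, 40.3 and 68.6 CPM (lowest, median, highest) in ID insulin, 33.3, 39.7 and 44.6 in ID control, 32.2, 41.3 and 42.8 in IS insulin pups, and 34.8, 38.9 and 41.5 in IS control. The other 7 ID insulin pups reached at most 41.7 CPM, so the top value belonged to replicate 3 alone. ID insulin minus ID control was 0.12 on the log2 scale (95% interval -0.08 to 0.31, edgeR adjusted p = 0.535) and -0.02 without that pup. ID insulin minus IS control was 0.13, and 0.00 without that pup.

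Nfu1, which delivers clusters to enzymes such as lipoic acid synthase, had a narrow range in each group other than ID insulin. It had 15.99, 18.01 and 21.4 CPM (lowest, median, highest) in ID insulin, 16.5, 17.4 and 18.2 in ID control, 17.1, 17.6 and 19.0 in IS insulin pups, and 15.9, 16.8 and 17.7 in IS control. Of 8 ID insulin pups 5 stood above every IS control pup, while the lowest of the ID insulin pups, at 15.99 CPM, lay within the IS control range. Its mean was 18.1 ± 1.8 CPM in ID insulin and 16.8 ± 0.6 in IS control (SD, n = 8 each), a log2 fold change of 0.11 ± 0.05 (SE; 95% interval 0.01 to 0.21, edgeR unadjusted p = 0.0269, adjusted p = 0.183). That was the lowest adjusted p of any gene of the route, and without ID insulin replicate 3 the difference was 0.08. IS insulin minus IS control was 0.09 (edgeR adjusted p = 0.365), and ID insulin minus IS insulin was 0.02.

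**Figure D3:**
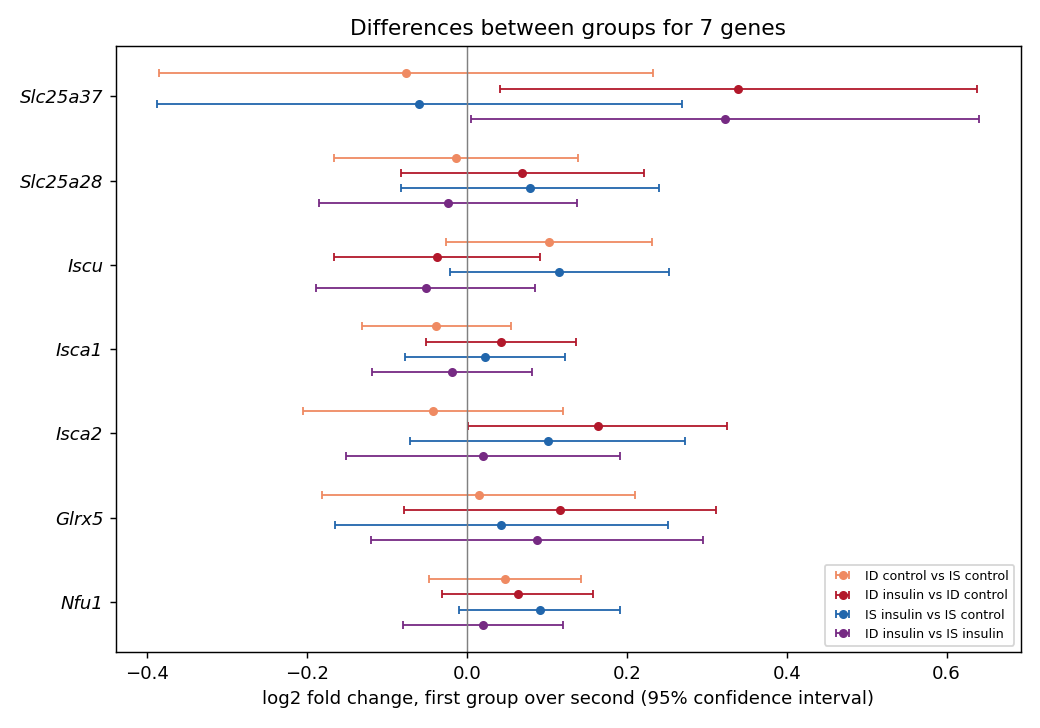
Log2 fold changes of 7 genes (points) with 95% confidence intervals (bars) in 4 comparisons, the first group named being on top of the ratio. Slc25a37 in ID insulin lies highest, at 0.34 over ID control and 0.32 over IS insulin, and no difference passed the adjusted threshold.

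The desulfurase Nfs1 could not be read from these counts. The row ENSRNOG00000019736 had 91 reads in ID insulin replicate 4 and 131 in IS control replicate 8, and 1 to 16 in the other 30 libraries. The row ENSRNOG00000045686 had 50 reads in ID insulin replicate 6 and 61 in IS control replicate 7, and 0 to 4 in the other 30, of which 14 had no read. Each row was thus near the floor except in 2 pups, and these were 4 different pups. Reads shared by rows of the same name may have been split or left unassigned, since how such reads were counted is not given in the sources used here. The first row gave a log2 fold change of -1.95 for ID control over IS control (95% interval -3.58 to -0.32, edgeR unadjusted p = 0.0208, adjusted p = 0.315) and an interaction of 2.88 (edgeR adjusted p = 0.193). With the reads of both rows summed these were -2.12 (edgeR adjusted p = 0.213) and 3.43 (edgeR adjusted p = 0.0916). Over the 13 other settings that kept the row, the summed rows among them, they ran from -2.15 to -0.33 and from -0.10 to 3.43. The row fell below the count minimum when ID insulin replicate 4, IS control replicate 8 or any of 4 other pups (ID insulin replicate 5, ID control replicate 1, IS control replicates 1 and 2) was left out. The gene most like the row across libraries was Eno2, the neuronal enolase, with 550 reads in ID insulin replicate 4 and 2246 in IS control replicate 8. The other 30 libraries had 44 to 302. The 302 reads were in ID insulin replicate 6, a high pup of the second Nfs1 row, whose other high pup, IS control replicate 7, had 111. Whether the Eno2 row was itself well counted was not tested.

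**Figure D4:**
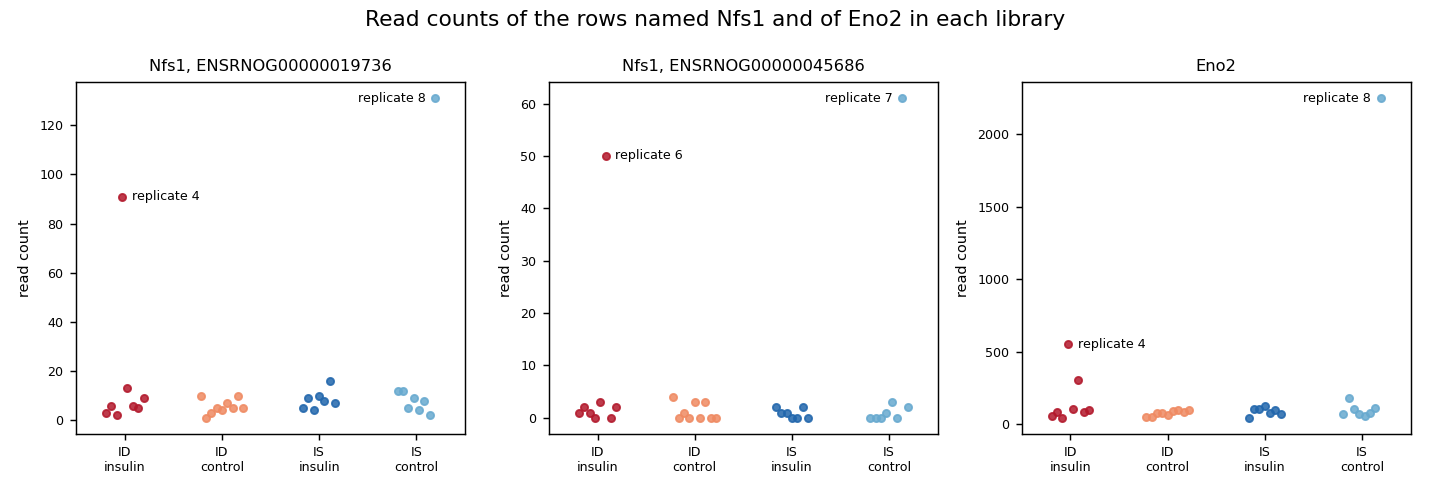
Read counts per pup, by group, of the 2 rows named Nfs1 and of Eno2, on linear axes. The first row and Eno2 share their 2 highest pups, ID insulin replicate 4 and IS control replicate 8. The second row is high in 2 other pups, of which ID insulin replicate 6 is the next highest for Eno2.

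The genes differed in how much they varied from pup to pup within a group. The SD on the log2 scale, pooled over the groups, was 0.083 for Nfu1, 0.094 for Isca1, 0.134 for Iscu, 0.157 for Slc25a28, 0.167 for Isca2, 0.201 for Glrx5 and 0.297 for Slc25a37, and 1.06 for the tested Nfs1 row. The median over all tested genes was 0.171. Of all tested genes, 92.5% varied more than Nfu1 and 86.9% more than Isca1, whereas 26% varied more than Slc25a37, a gene of low counts.

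Iscu, Isca1 and Glrx5 varied together across the pups. Among 28 relations (21 pairs of the 7 genes, and each gene with the red blood cell genes), 5 had an adjusted permutation p under 0.05 for Pearson's r. Isca1 with Glrx5 gave r = 0.751 (permutation p = 1e-05, the smallest that the resamples can give, adjusted p = 0.00014) and rho = 0.607 (permutation p = 0.00033, adjusted p = 0.00462). Iscu with Glrx5 gave r = 0.705 (permutation p = 1e-05, adjusted p = 0.00014) and rho = 0.706 (permutation p = 2e-05, adjusted p = 0.00056). Iscu with Isca1 gave r = 0.637 (permutation p = 8e-05, adjusted p = 0.000747) and rho = 0.534 (permutation p = 0.002, adjusted p = 0.0187). Without the 2 libraries farthest from the median these r values were 0.579, 0.732 and 0.582, and all 3 relations held a positive sign within every group. The weakest was Isca1 with Glrx5 in IS insulin (r = 0.181, against 0.758 in IS control). Glrx5 with Nfu1 (r = 0.552, permutation p = 0.00429, adjusted p = 0.024; rho = 0.272, permutation p = 0.13, adjusted p = 0.272) rested on ID insulin replicate 3: r was 0.221 without the 2 libraries farthest from the median. The libraries share a normalization, and their RNA quality was not tested.

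The genes most like each member were taken as the 3 with the highest Pearson's r over the 32 libraries among tested genes whose mean log2 CPM was 1 or more, and r is given as a description. For Glrx5 they were the proteasome subunit Psmb4 (0.891), prohibitin Phb (0.890) and the glutathione peroxidase Gpx4 (0.887). For Iscu they were the splicing factor Bcas2 (0.841), the aldehyde reductase Akr1a1 (0.808) and the complex I subunit Ndufa11 (0.800). For Isca1 they were the proton pump subunit Atp6v0b (0.843), again Akr1a1 (0.834) and the complex I subunit Ndufa6 (0.830). For Nfu1 the first was Sdhc (0.796), a membrane subunit of succinate dehydrogenase, followed by Dynlt1 (0.773) and Snrpd1 (0.755). For Isca2 they were Smim8 (0.682), the fatty acid dehydrogenase Acadl (0.679) and the isocitrate dehydrogenase Idh1 (0.651). For Slc25a28 they were Mtg2 (0.681), Pbx4 (0.616) and Sh3gl3 (0.597). For Slc25a37 they were Arhgap22 (0.686), Slitrk6 (0.650) and the red blood cell anion exchanger Slc4a1 (0.649), which was itself on the red blood cell list. For the tested Nfs1 row Rnf2 (0.577) and Usp5 (0.568) followed Eno2 (0.777). With group means removed r lay between 0.524 and 0.900 for all of these genes.

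The rest of the iron-sulfur pathway was described with 7 lists, of which 99 genes were tested. The lists were chosen with earlier results of these data known, so their shares of called genes are descriptions and were not tested against those of all genes. Of the 14 assembly partners (such as the ferredoxins, the HSCB and HSPA9 chaperones and the BOLA proteins), 0 were called in any of the 7 comparisons, and the same held for 9 genes of inner membrane transport and glutathione and for 9 of lipoic acid synthesis and lipoylated complexes. Between ID control and IS control 1 of the 99 genes was called, or 1.01% against 0.291% of all genes. It was Tfrc, the transferrin receptor that brings iron into cells, with 169 ± 20 CPM in ID control and 117 ± 7 in IS control (SD, n = 9 and 8), a log2 fold change of 0.53 (edgeR adjusted p = 0.000116). All 9 ID control pups stood above all IS control pups, a separation seen for 0.142% of all genes. In ID insulin Tfrc was higher still, at 203 ± 17 CPM. Between IS insulin and IS control 0 of 99 were called, with 0.123% of all genes.

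In the comparison of ID insulin with ID control 7 of the 99 pathway genes were called, 5 higher and 2 lower (7.07%, against 3.82% of all genes). In cytosolic assembly 2 of 11 were called, both from the early electron transfer step: the reductase Ndor1 fell to 17.6 ± 2.2 CPM in ID insulin, against 23.7 ± 2.6 in ID control (log2 -0.42, edgeR adjusted p = 0.00737), while its partner Ciapin1 had 52.7 ± 1.9 CPM in ID insulin and 48.1 ± 2.2 in ID control (log2 0.13, edgeR adjusted p = 0.0418). Of 8 ID insulin pups 7 were below every ID control pup for Ndor1, and 4 were above every one for Ciapin1. The Ciapin1 call was lost in 15 of 32 fits that left out 1 pup and in 10 of 15 other settings, with log2 differences of 0.08 to 0.15 throughout. Among 28 iron-sulfur proteins Xdh, the xanthine oxidoreductase, was lower (5.48 ± 1.27 CPM in ID insulin, 7.65 ± 1.35 in ID control, log2 -0.49, edgeR adjusted p = 0.0254), and Rsad2, the interferon-induced viperin, was higher (16.9 ± 8.5 CPM in ID insulin, 7.14 ± 2.27 in ID control, log2 1.25, edgeR adjusted p = 0.00737). With the red blood cell list in the model the Rsad2 difference was 0.30 and was not called (edgeR adjusted p = 0.22). The Xdh call was lost without ID control replicate 3 (log2 -0.44, edgeR adjusted p = 0.0547) or ID control replicate 8 (log2 -0.45, edgeR adjusted p = 0.0527), and in 6 of 15 other settings.

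Heme and iron handling held the other 3 calls. The porphyrin transporter Abcb6 had 46.0 ± 3.0 CPM in ID insulin and 40.3 ± 1.9 in ID control (log2 0.19, edgeR adjusted p = 0.0106), the only call of 12 heme synthesis genes. Ncoa4, which sends ferritin to the lysosome so that stored iron is freed, had 161 ± 8 CPM in ID insulin and 140.7 ± 6.5 in ID control (log2 0.20, edgeR adjusted p = 0.00618). All 8 ID insulin pups were above all ID control pups, a separation seen for 0.201% of all genes, but the IS groups averaged 166 ± 10 CPM with insulin and 156 ± 10 without. Tfrc had 203 ± 17 CPM in ID insulin and 169 ± 20 in ID control (log2 0.26, edgeR adjusted p = 0.0243), a call lost in 6 of 15 other settings, among them the red blood cell list in the model (log2 0.27, edgeR adjusted p = 0.061) and the compared groups alone (log2 0.26, edgeR adjusted p = 0.0566). Between ID insulin and IS insulin 4 of 99 were called (4.04%, against 2.45% of all genes), with Tfrc, Rsad2 and Ciao1 higher and Xdh lower. Between ID insulin and IS control 5 of 99 were called (5.05%, against 3.35% of all genes). Of these Tfrc, Rsad2, Abcb6 and the ferrochelatase Fech were higher and Xdh lower. In ID and IS averaged over treatment 2 of 99 were called (2.02%, against 1.63% of all genes). Tfrc was higher in ID there under every setting. Xdh was lower in ID there (log2 -0.36, edgeR adjusted p = 0.031), a call lost in 4 of 14 other settings and in 3 of 32 fits that left out 1 pup (ID insulin replicate 5 or 8, or IS insulin replicate 4), with differences of -0.40 to -0.31 throughout. Marker genes of other cell types and tissues also differed between ID insulin and ID control. Called lower in ID insulin were 7 of 10 meningeal, 3 of 6 endothelial, 3 of 11 hippocampal neuron, 1 of 8 astrocyte and 1 of 6 microglial genes. Called higher were 4 of 9 red blood cell genes, and of 10 thalamic genes 2 were higher and 1 lower. Of choroid plexus genes 0 of 12 were called, and of oligodendrocyte genes 0 of 8. Among all genes tested 3.82% were called in either direction. Endothelial sums had a median of 304 CPM in ID insulin (227 to 330), 355 in ID control (340 to 381) and 314 in IS control (223 to 336). All ID control pups lay above all 8 ID insulin pups and above all 8 IS control pups. IS insulin pups (290 to 350) overlapped ID control. Of 6 endothelial genes 1 was called higher in ID control than in IS control (0.291% of all genes), and 2 were called lower in the interaction (0.939%). No fit had the endothelial list in the model, so its part in the Tfrc differences was not tested.

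With the means of all tissue lists in the model, none of the 7 calls between ID insulin and ID control passed the threshold (edgeR adjusted p from 0.113 for Ncoa4 to 0.825 for Rsad2). Over all genes, 589 were called in this comparison in the main fit and 10 to 819 under the 15 other settings. A call lost or kept under such a setting therefore does not set these genes apart. With the tissue lists in the model, the differences of the 7 genes did not all shrink. They were -0.40 for Ndor1, 0.17 for Abcb6 and 0.26 for Ncoa4, near or above those without the lists, and 0.08 for Ciapin1, -0.33 for Xdh, 0.14 for Tfrc and 0.13 for Rsad2. Against the 5 ID control pups titled 69 alone, Ndor1 and Ncoa4 passed the threshold, and against the 4 titled 70 alone, Rsad2 and Abcb6 did. The differences of the others kept their direction with these fewer pups: against those titled 69 and 70 they were 0.28 and 0.23 for Tfrc, -0.48 and -0.51 for Xdh, and 0.11 and 0.15 for Ciapin1. Rsad2 was 0.96 against those titled 69 and Abcb6 0.16, while Ndor1 was -0.31 and Ncoa4 0.15 against those titled 70.

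The cytosolic electron transfer pair also gave the only calls of the 99 genes in the interaction of diet and insulin (2.02%, against 0.939% of all genes). For Ndor1 the response to insulin in ID pups minus that in IS pups was -0.52 (edgeR adjusted p = 0.0439), and for Ciapin1 it was 0.23 (edgeR adjusted p = 0.0405). In IS pups Ndor1 had 22.1 ± 3.2 CPM with insulin and 20.7 ± 3.1 without, and Ciapin1 had 48.1 ± 3.5 with insulin and 51.3 ± 2.1 without (SD, n = 7 and 8). The Ndor1 interaction was lost in 18 of 32 fits that left out 1 pup, over which the difference ran from -0.57 to -0.48, and that of Ciapin1 in 14 of 32, with 0.20 to 0.26. Each was also lost in 7 of 14 other settings.

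**Figure D5:**
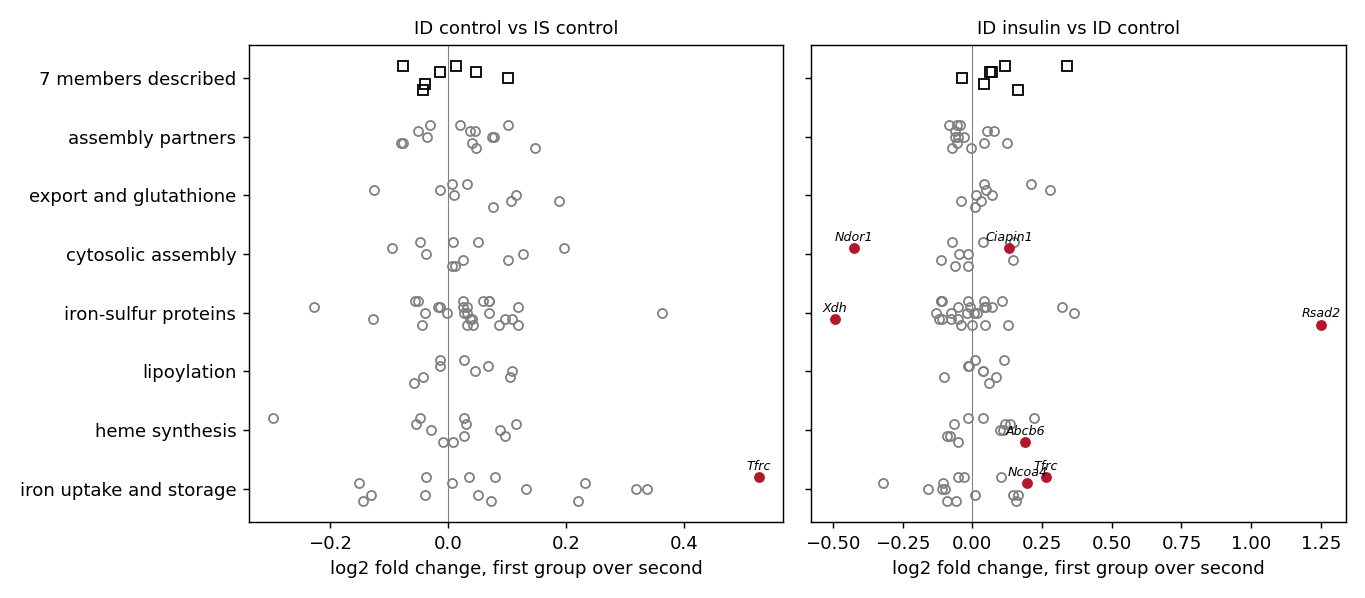
Log2 fold changes of the 7 described genes (black squares) and of 99 other pathway genes in 7 lists (circles, filled red where called at adjusted p under 0.05), for ID control over IS control and ID insulin over ID control. Tfrc is the only called gene on the left, and 7 genes are called on the right, with Rsad2 at 1.25.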

How the data were processed

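RNA sequencing libraries of 32 rat hippocampi in 4 groups were used, each mapped to its group by its source label. The authors deposited raw read counts per gene for all libraries in 1 table. Per the submitters' processing notes, reads were trimmed with Trimmomatic (version 0.40), checked with FastQC, aligned with HISAT2 (version 2.1.0) and counted with featureCounts, and edgeR is named. The notes list the builds Rnor_6.0 and mm10 with no role, and the gene identifiers are of rat. Strandedness and the handling of reads that fit several genes are not given in the sources used here, so genes that share reads, by overlap or by sequence, are uncertain.

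Library totals were 19619345 to 28062630 counts, and no pair of libraries of a group agreed within sampling noise (the smallest chi-square was 5.84 per gene). In R (version 4.3.3), edgeR (version 4.0.16) gave TMM scaling, filterByExpr by group (15439 genes kept) and the two-sided quasi-likelihood F-test with 1 coefficient per group over all 32 libraries (28 residual degrees of freedom), adjusted by Benjamini-Hochberg over all genes tested. A gene was called at adjusted p under 0.05. The script was tested on simulated data. CPM use TMM-scaled totals, and log2 CPM a prior count of 2. Correlations used 100000 resamples.

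The members, the 7 pathway lists and the marker lists were chosen with earlier results of these data known. Named were all 8 members, up to 4 called genes per list and comparison by lowest adjusted p, and the 3 genes most like each member.

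Alternatives were DESeq2 (version 1.42.0), its size factors within edgeR, the omission of the filter, a minimum of 1 CPM in 7 libraries, limma voom (version 3.58.1) with sample weights, the compared groups alone, the second title number as a block, only the ID control pups titled 69 or only those titled 70, the red blood cell list, all tissue lists or Y-linked genes as covariates, ID insulin replicates 3 and 5 left out, and each library left out in turn. The earlier quasi-likelihood method of edgeR and the sum of both Nfs1 rows were added after seeing the data.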

Additional observations from a re-analysis of the deposited data

Results flagged for a closer look

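Single pups stood apart from their group in 10 of 72 sets of a gene and a group. A value is listed where its gap to the next pup exceeded Dixon's 95% limit for the range of its group. That limit is passed by about 1 in 20 sets when values are independent and normally distributed. These sets share pups, hold CPM without a log scale and include the Nfs1 rows near the floor. The 10 can therefore not be read as an excess over chance. ID insulin replicate 3 was highest for Glrx5 (68.6 CPM, next 41.7) and Isca1 (278.5 CPM, next 235). IS insulin replicate 1 was highest for Isca1 (255 CPM, next 233) and for Tfrc (165 CPM, next 126.5). For the Nfs1 row ENSRNOG00000019736 the pups were ID insulin replicate 4 (3.46 CPM, next 0.48) and IS control replicate 8 (4.94 CPM, next 0.558). For the row ENSRNOG00000045686 they were ID insulin replicate 6 (2.00 CPM, next 0.111) and IS control replicate 7 (2.91 CPM, next 0.134). IS insulin replicate 4 was highest for Fech (41.6 CPM, next 38.8) and Rsad2 (15.7 CPM, next 8.76). The response to insulin differed between ID and IS pups for Ndor1 (-0.52 on the log2 scale, edgeR adjusted p = 0.0439) and Ciapin1 (0.23, edgeR adjusted p = 0.0405), by the test of the interaction itself, but neither call was stable: they were lost in 18 and 14 of 32 fits that left out 1 pup, and in 7 of 14 other settings each.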

How the results depend on the processing

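The number of called rows among the 8 genes was 0 in the 7 comparisons under all 47 alternatives (32 left out 1 library each, and 15 changed something else), in 327 fits and comparisons together, and ran from 0 to 0 over the libraries left out. The lowest adjusted p of any of these rows was 0.0916, for the summed Nfs1 rows in the interaction. The comparison of groups alone could not be run for the average over treatment or the interaction. Of 721 differences of the 7 genes other than Nfs1 under the 15 settings, 59 had another sign than in the text, all of them for uncalled differences, and 2 moved by more than 1 within-group SD (Slc25a37 with tissue lists as covariates). Of 91 differences of the tested Nfs1 row, 5 had another sign and 12 moved by more than 1 within-group SD. Over all genes, the number called between ID control and IS control was 45, with 23 to 61 when 1 library was left out and 15 to 242 under the other settings. The same numbers were 589, 323 to 806 and 10 to 819 for ID insulin against ID control, 19, 0 to 92 and 0 to 206 for IS insulin against IS control, and 378, 169 to 751 and 55 to 723 for ID insulin against IS insulin. They were 517, 240 to 902 and 4 to 855 for ID insulin against IS control, 252, 177 to 346 and 51 to 518 for the diets averaged over treatment, and 145, 40 to 594 and 9 to 491 for the interaction. The lowest of the other settings was that with tissue lists as covariates in 5 of these 7. Calls lost under several alternatives, besides those given for Tfrc, Xdh, Ndor1 and Ciapin1 in the text, included Fech for ID insulin against IS control (lost in 10 of 15 settings and 23 of 32 fits without 1 library), Ciao1 for ID insulin against IS insulin (7 of 15 and 15 of 32) and Rsad2 in that comparison (7 of 15 and 8 of 32). For ID insulin against IS control Abcb6 was lost in 4 and Rsad2 in 3 of 15 settings, but in 0 of 32 fits without 1 library, as was Xdh in 2 of 15 against IS insulin and 1 of 15 against IS control, and the cause was not tested. Tfrc for ID control against IS control was called in all 47. Second title numbers gave no sign of pairing the pups. Over 40 same-numbered pairs the median correlation of deviations from group means was 0.00336, and 8 exceeded 0.1. Over 343 other-numbered pairs the median was 0.00381, and 72 exceeded 0.1. Of 32 libraries 2 correlated best with their own number. Such correlations over all genes cannot exclude that the second title number marks a pairing. With that number as a block, ID insulin minus ID control for Slc25a37 was 0.32 (edgeR adjusted p = 0.239), 703 genes were called there, and Ciapin1 and Xdh were not called in it, nor Ndor1 and Ciapin1 in the interaction. Depth limits the Nfs1 rows, which had 427 and 143 reads over all libraries, and Slc25a37, with 57 to 169 reads a library.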
